A study of Mus musculus with 12 samples.

Results

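The genes described here are 9 components of the JAK-STAT pathway: the kinases Jak1, Jak2 and Tyk2, the transcription factors Stat2, Stat3, Stat5b and Stat6, and the feedback inhibitors Socs1 and Socs3. They were chosen by gene symbol, each matched 1 row of the 27503 in the deposited table, and all 9 passed the filter on low counts that left 17590 genes to test. RNA was sequenced from B16F10, a transplantable mouse melanoma line, in 12 libraries that crossed the form of IRF7 (wild type or the C435A mutant) with interferon alpha (IFNα) or control, 3 libraries to each of 4 groups. IRF7 is a transcription factor that switches on genes of the type I interferons, and the C435A form has alanine in place of one of its cysteines. The labels give no dose or time of IFNα and do not say how the mutant line was made or whether it is 1 clone. They also do not tie the libraries of a group to different cultures, so the spread behind each p-value is that of these libraries and may be technical.

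Cytokine receptors of this pathway have no enzyme of their own and carry a pair of JAK kinases on their inner tails. Binding of the cytokine lets the JAKs phosphorylate the receptor and then STAT proteins, which pair up, enter the nucleus and bind DNA. The type I interferon receptor uses Jak1 and Tyk2, and its best known product is ISGF3, a complex that contains Stat2 and Irf9 and binds the interferon-stimulated response element (ISRE). Other STAT dimers bind the palindromic GAS element. SOCS genes are themselves STAT targets whose proteins bind JAKs or receptors and shut signalling down, which makes them a transcript readout of a pathway that otherwise acts by phosphorylation.

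The RefSeq promoter table, build GRCm38.p6, gave a window of 250 bases before to 50 bases after a transcription start for all 9 genes, 10 windows in all since Stat5b has more than 1 start. Both strands were searched for the ISRE core GAAANNGAAA and for the GAS palindrome TTCNNNGAA, with its wider form TTCNNNNGAA. Of all 32851 windows of that length, 3.44% held the ISRE core, 8.3% the GAS palindrome and 6.95% the wider form. Matches were present for 3 of the 9 genes, and the stretches of all 3 are shown, whatever their levels. A link between these matches and the IFNα values was not tested. Each is printed on the strand of its gene, 5′ to 3′, with the matched bases in capitals.
Stat2, chr10:128270251-128270322, plus strand: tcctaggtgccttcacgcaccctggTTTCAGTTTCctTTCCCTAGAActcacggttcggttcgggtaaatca
Socs1, chr16:10785579-10785644, minus strand: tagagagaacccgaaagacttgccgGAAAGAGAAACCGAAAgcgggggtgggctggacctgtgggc
Socs3, chr11:117969487-117969545, minus strand: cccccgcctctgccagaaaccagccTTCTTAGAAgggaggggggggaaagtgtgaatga

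The Socs1 stretch holds 2 overlapping ISRE matches, at 83 to 74 and 77 to 68 bases before the start. In Stat2 the ISRE match lies on the opposite strand at 222 to 213 bases before the start, next to a wider GAS match at 210 to 201, and in Socs3 a GAS match lies at 154 to 146. Jak1, Jak2, Tyk2, Stat3, Stat5b and Stat6 had none of these letters in their windows. Among the ISGF3 target genes listed for comparison, 20 had a window and 10 of them held the ISRE core. A match is a run of letters and not a measured binding site.

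In the resting wild-type line the members spanned levels from an FPKM (fragments scaled by transcript length and library size, as deposited) of 10.9 ± 1.56 for Stat6 to 0.367 ± 0.0596 for Jak2 (mean ± SD, n = 3 libraries). Tyk2 followed Stat6 at 6.2 ± 0.86, then Stat2 at 4.22 ± 0.773, Stat3 at 3.45 ± 0.334, Stat5b at 3.4 ± 0.829, Jak1 at 3.04 ± 0.252, Socs1 at 2.31 ± 0.598 and Socs3 at 1.24 ± 0.194. Stat6 lay above Tyk2, Tyk2 above Stat2, Socs1 above Socs3 and Socs3 above Jak2 in every pairing of the 3 libraries. From Stat2 down to Socs1 each gene overlapped with the next, so these ranges do not resolve the order of adjacent genes. Stat2 still lay above Jak1 and Socs1, and Stat3 above Socs1, in every pairing. Within each wild-type control library Stat2 was at 1.09 to 1.3 times the FPKM of Stat3. Of the 2 kinases of the type I interferon receptor, Tyk2 was at 1.74 to 2.47 times the FPKM of Jak1 in these controls. Jak2, which serves the receptors for interferon gamma, growth hormone and erythropoietin, rested on 68 to 183 counts a library and was measured least precisely.

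The library-by-library FPKM of each member are plotted with their group means.

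**Figure D1:**
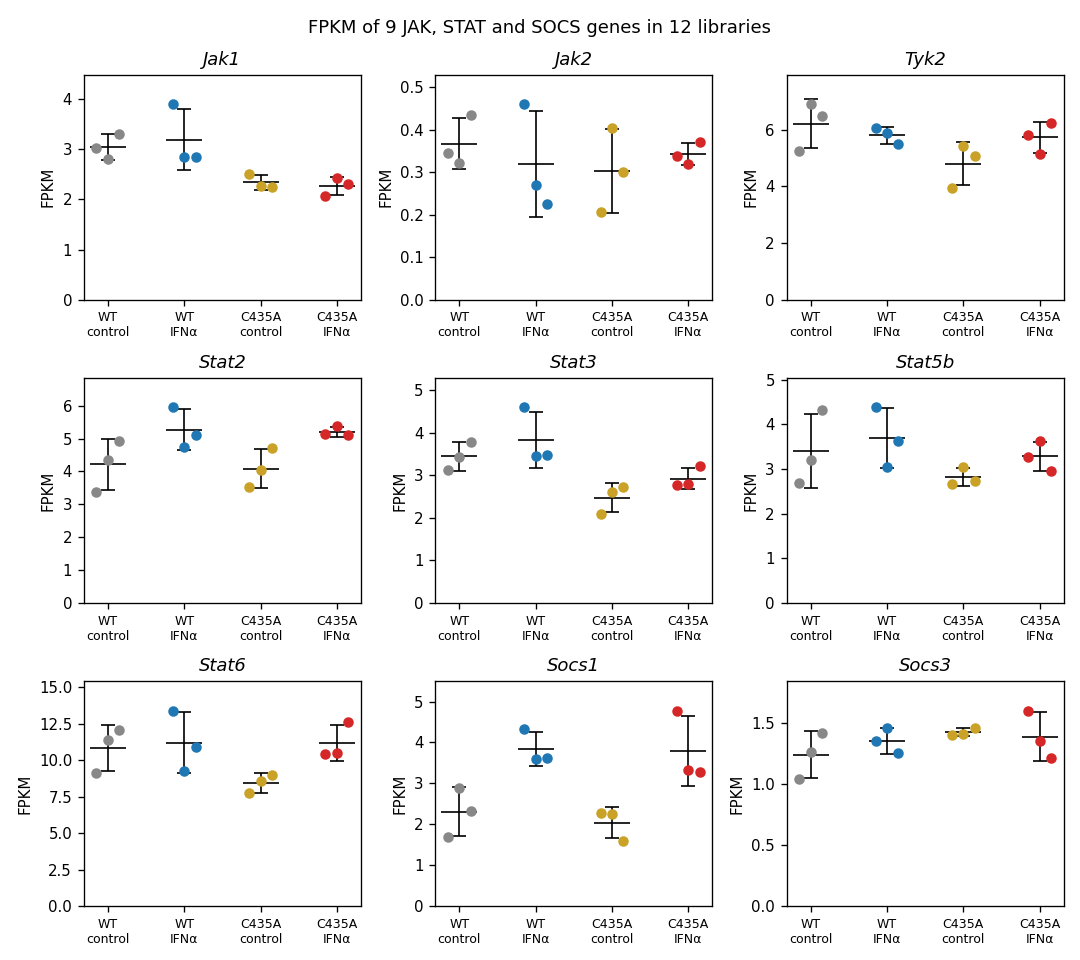
FPKM (vertical axes, each from 0) of the 9 genes in the wild-type (WT) and C435A lines with and without IFNα; points are libraries 1 to 3 from left to right, long bars the group means and whiskers ± 1 SD (n = 3). Socs1 lay at 3.28 to 4.78 in the 6 IFNα libraries and at 1.6 to 2.9 in the 6 controls, and Jak1 at 2.06 to 2.51 in the 6 mutant libraries and 2.8 to 3.89 in the 6 wild-type ones.

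Library totals ran from 60511573 to 75927461 counts. All 9 melanocyte markers were found, summing to 7170 to 9580 CPM (counts scaled to a common library size), with only Oca2 at 0 in 2 libraries. Lung epithelial markers summed to 45 to 67.9 CPM in 8 libraries (all wild-type IFNα, all mutant control, wild-type control 1 and mutant IFNα 3) and to at most 0.324 CPM in the other 4, so their presence is unevenly spread over the groups. The sum of 12 leukocyte markers was 109 to 122 CPM in mutant controls and 62.1 to 98.3 CPM in the other groups, the largest part of it Lyz2, Csf1r, Itgam and Ptprc, while the T cell markers Cd3e, Cd4 and Cd8a were at 0 in 9, 8 and 4 libraries and reached at most 0.655 CPM. Mutant IFNα 3 stood apart from its group, with an SD of log2 ratios over 6318 well-counted genes of 0.434 and 0.436 to its 2 partners, against 0.274 between those. Irf7 itself was at an FPKM of 12.3 ± 0.611 in wild-type controls and 4.87 ± 0.392 in mutant controls (log2 fold change −1.23, edgeR adjusted p = 0.0057).

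The feedback inhibitors are taken first. Socs1, which binds the kinase domain of JAKs and blocks it, had the largest IFNα difference of the 9 genes, 1.73-fold on average over both lines, but it missed the threshold in the test over all genes. In wild-type controls its FPKM was 1.7, 2.9 and 2.32, and with IFNα 4.32, 3.6 and 3.62. In mutant controls it was 2.27, 2.26 and 1.6, and with IFNα 4.78, 3.33 and 3.28. Every IFNα library lay above every control library, in both lines. Of all genes, 0.864% were higher with IFNα without overlap of CPM in both lines, each compared on its own. The table places Socs1 on chromosome 16 at 10600104 to 10603400, minus strand.

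Averaged over the lines, the log2 fold change of Socs1 was 0.79 ± 0.151 (SE, 95% interval 0.472 to 1.12, edgeR adjusted p = 0.0561). In the wild type alone it was 0.72 ± 0.212 (adjusted p = 0.58), the mutant gave 0.87 ± 0.214 (adjusted p = 0.274), and the difference between those was 0.16 ± 0.299 (adjusted p = 0.967). Lung transcripts were present in all 3 wild-type IFNα and all 3 mutant control libraries but in 1 of 3 wild-type control and 1 of 3 mutant IFNα libraries. In those 8 libraries Socs1 differed by 0.88 ± 0.164 (adjusted p = 0.0249), a setting chosen after the data were seen. There 2 of the 4 groups have a single library, which is assumed to vary like the others, mutant IFNα 3 is one of these, and the fit called 757 genes where that on all libraries called 30. DESeq2 also called it, with an adjusted p of 0.000153, whereas in the edgeR fits that each left out 1 library the adjusted p was 0.0493 without mutant IFNα 3 and 0.0575 to 0.165 otherwise.

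Socs3, the inhibitor best known for acting on receptors of the interleukin-6 family, did not show such a difference. Its FPKM was 1.04, 1.26 and 1.42 in wild-type controls against 1.35, 1.46 and 1.25 with IFNα, and 1.4, 1.41 and 1.46 in mutant controls against 1.6, 1.35 and 1.21 with IFNα. The groups overlapped in both lines, and the averaged log2 fold change was 0.03 ± 0.121, with a 95% interval of −0.232 to 0.289. The table places Socs3 on chromosome 11 at 117856905 to 117860873, minus strand.

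Within each library the FPKM of Socs1 over that of Socs3 was 1.64, 2.3 and 1.63 in wild-type controls and 3.2, 2.47 and 2.89 with IFNα. The mutant libraries had 1.62, 1.6 and 1.09 in controls and 3, 2.46 and 2.72 with IFNα. This ratio does not depend on library scaling, and each of the 6 IFNα libraries lay above all 6 controls. It is given as a description, without a test.

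**Figure D2:**
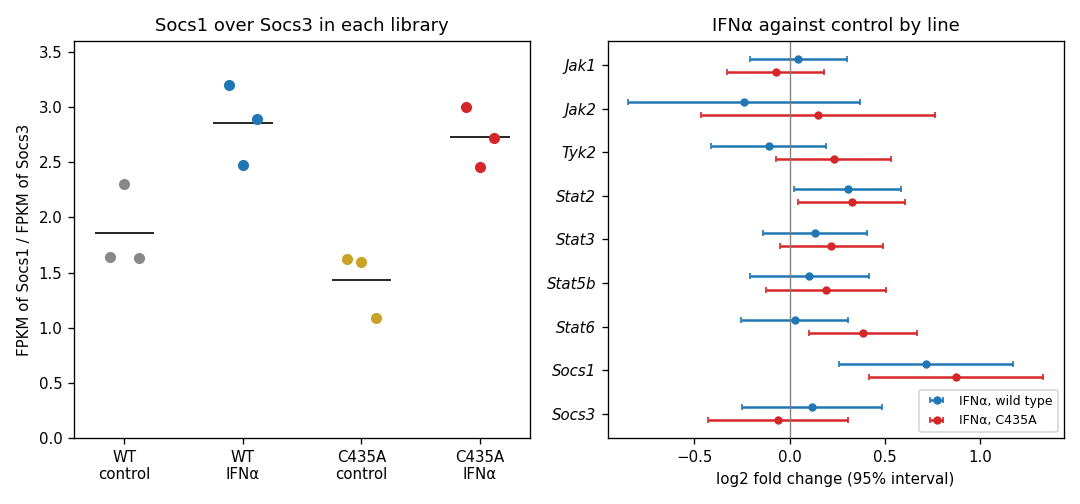
Left, the ratio of Socs1 to Socs3 FPKM in each library (points, with group means as bars), 1.09 to 2.3 in controls and 2.46 to 3.2 with IFNα; right, log2 fold change of IFNα against control for the 9 genes in the wild-type (blue) and C435A (red) lines with 95% intervals from edgeR. Both Socs1 intervals and both Stat2 intervals lie above 0, and the 2 lines' intervals overlap for every gene.

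Stat2, the STAT that carries ISGF3, was the member with the next smallest p for IFNα. Its scaled level in wild-type controls was 21.4, 27.2 and 27.5 CPM, and with IFNα 32.7, 29.5 and 31.8 CPM. Mutant controls had 22.6, 26 and 30.6 CPM, and 32.8, 33.6 and 32.9 CPM were found with IFNα. On this scale the groups did not overlap in either line, although in FPKM the lowest wild-type IFNα library (4.74) fell below the highest control (4.92). The averaged log2 fold change was 0.32 ± 0.0925 (95% interval 0.117 to 0.514, edgeR adjusted p = 0.232), with 0.31 for the wild type alone and 0.33 for the mutant. The deposited position of Stat2 is chromosome 10, 128106428 to 128128718, plus strand.

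Stat6, which acts downstream of interleukin-4 and interleukin-13, was the most abundant member in all 4 groups. Its FPKM was 9.09, 11.4 and 12.1 in wild-type controls and 13.4, 9.29 and 10.9 with IFNα, overlapping throughout, with a log2 fold change of 0.03 ± 0.131. In the mutant it was 7.73, 8.58 and 9.02 in controls and 10.4, 10.5 and 12.6 with IFNα, without overlap, and the log2 fold change was 0.38 ± 0.132 (95% interval 0.102 to 0.667, edgeR adjusted p = 0.378). The 2 lines were not shown to differ, since the interaction was 0.36 ± 0.186 with an adjusted p of 0.916. Stat6 is placed on chromosome 10 at 127478855 to 127496826, plus strand, where it shares 40 bases with Nab2 on the other strand.

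Stat3, the main STAT of the interleukin-6 family, and Stat5b, the STAT of growth hormone, had averaged IFNα differences of 0.18 ± 0.0896 (adjusted p = 0.538) and 0.15 ± 0.103 (adjusted p = 0.691). The kinases differed less: 0.06 ± 0.0996 for Tyk2, −0.01 ± 0.084 for Jak1 and −0.04 ± 0.201 for Jak2, none with an adjusted p under 0.896. Their 95% intervals lay within −0.194 to 0.274 for Jak1 and Tyk2, the 2 kinases of the interferon receptor, so a 2-fold change of either was outside the interval. The interval of Jak2 was −0.476 to 0.387.

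Counted over the members, IFNα changed 0 of 9 past the threshold in the average of both lines, where 0.171% of the genes tested passed. At an unadjusted p under 0.05 there were 3 (Socs1, Stat2 and Stat6), where 10.2% of genes passed, and DESeq2 and limma, which called 2.53% and 0.258% of the genes they tested, called Socs1 alone. In each line separately 0 of 9 passed, against 0.0227% of genes for the wild type and 0.00569% for the mutant. At an unadjusted p under 0.05 there were 2 members for the wild type, against 5.44% of genes, and 3 for the mutant, against 10.3%. DESeq2 called 0 (0.359% of genes) and 1 (1.04% of genes), and limma called 0 of 8 in both, against 0.0297% of genes in each. CPM were higher with IFNα without overlap for 3 members in the wild type (Stat2, Stat3 and Socs1, against 5.48% of genes). In the mutant there were 3 (Stat2, Stat6 and Socs1, against 7.97%). Stat2 and Socs1 were higher without overlap in both lines, against 0.864% of genes. In FPKM Stat2 and Stat3 overlapped in the wild type. The highest control and lowest IFNα library of Stat3 there were at 34.4 and 34.5 CPM. The median log2 fold change of the 9 was 0.10 for the wild type, 0.22 for the mutant and 0.15 for the average, where the median of all genes was 0.016, −0.0072 and 0.002. The interval of 8 of the 9 lay within 2-fold in the average, Socs1 being the exception.

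The interaction asks whether IFNα moved a gene differently in the 2 lines. It passed for 0 of 9 members and for 0% of all genes with edgeR, and no member had an unadjusted p under 0.05, where 5.17% of genes did. DESeq2 called 14 genes (0.0618%) and limma 0, with none of the 9 among them. Values ran from −0.18 ± 0.243 for Socs3 to 0.39 ± 0.403 for Jak2, and 8 of the 9 intervals stayed within 2-fold. Tyk2 had the second smallest p after Stat6, at 0.34 ± 0.199 (adjusted p = 0.916). It had a mean FPKM of 6.2 ± 0.86 in wild-type controls and 5.81 ± 0.303 with IFNα, against 4.8 ± 0.769 and 5.72 ± 0.54 in the mutant. Tyk2 is placed on chromosome 9 at 21015364 to 21042539, minus strand, and 24326 bases of it are shared with 1700084C06Rik on the other strand. Whether the counting used strand is not given in the sources used here, so reads of these 2 genes may not be told apart.

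Comparing the C435A line with the wild type, the receptor-associated kinase Jak1, used by interferon, interleukin-6 and common gamma chain receptors, was the single member to pass. Its FPKM was 3.01, 2.8 and 3.3 in wild-type controls and 2.51, 2.26 and 2.24 in mutant controls. With IFNα it was 3.89, 2.83 and 2.84 in the wild type and 2.06, 2.42 and 2.3 in the mutant. All 6 mutant libraries lay below all 6 wild-type libraries, also in CPM (16.1 to 19.7 against 21.3 to 26). Of all genes, 1.84% were lower in the mutant without overlap of CPM in both treatments, each compared on its own. CPM are free of a shift of the deposited FPKM toward lower values in the mutant (median log2 difference of all genes −0.087 in limma). Averaged over both treatments Jak1 fell by 0.33 ± 0.0841 on the log2 scale, to 0.793 of the wild-type level (95% interval −0.514 to −0.154, edgeR adjusted p = 0.0497). The table places Jak1 on chromosome 4 at 101009564 to 101122479, minus strand, with 4 bases shared with Raver2 on the other strand.

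That call sat at the threshold and did not outlast the loss of any library, the adjusted p being 0.0539 to 0.137 over the 12 edgeR fits that each left out 1, while the value stayed between −0.37 and −0.30. Within controls Jak1 differed by −0.27 (adjusted p = 0.434) and within IFNα libraries by −0.39 (adjusted p = 0.157). Melanocyte markers summed to 7170 to 8160 CPM in the mutant and 8010 to 9580 CPM in the wild type, and the leukocyte sum was highest in mutant controls. Their part in the result was not tested. In bulk RNA fewer cells of a type and less RNA per cell cannot be told apart. In the 8 libraries with lung transcripts, 2 groups being single libraries, Jak1 differed by −0.34 ± 0.123, with an adjusted p of 0.144.

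Stat3 was the other member whose libraries of the 2 lines did not overlap under either treatment. Its FPKM was 3.12, 3.43 and 3.79 in wild-type controls and 2.09, 2.62 and 2.72 in mutant controls. With IFNα the values were 4.6, 3.45 and 3.47 in the wild type and 2.77, 2.8 and 3.21 in the mutant. The mutant values were the lower ones in both cases. The averaged log2 fold change, −0.33 ± 0.0896 (95% interval −0.524 to −0.139, edgeR adjusted p = 0.0656), missed the threshold. It was −0.37 in controls and −0.29 with IFNα, both at an adjusted p of 0.333. DESeq2 called Stat3 with an adjusted p of 0.0103, and leaving out mutant IFNα 3 gave 0.0399. Over the 8 libraries with lung transcripts the difference was −0.22 ± 0.129. Stat3 lies on chromosome 11 at 100775924 to 100830366, minus strand, and shares 72 bases with Stat5a on the other strand.

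Across all members 1 of 9 was called lower and 0 higher in the mutant averaged over treatments, where 2.8% of all genes were called, 0.915% as lower. Within controls 0 of 9 passed (0.165% of genes) and with IFNα 0 of 9 (0.597% of genes). Jak1 and Stat3 had an unadjusted p under 0.05 in each of these 3 comparisons, as had 18.1% of genes in the average, 10.7% in controls and 13.7% with IFNα. DESeq2 called 2 members in the average (8.13% of genes), 0 in controls (1.26%) and 1 with IFNα (4.88%). From limma, which kept 8 of the members, there were 0 calls in each, against 3.93%, 0.347% and 0.555% of genes. Jak1 and Stat3 were lower in CPM without overlap both in controls and with IFNα, a pattern shown by 1.84% of genes, while 8.01% showed it in controls and 8.52% with IFNα. Without overlap of CPM in the other direction were Socs3 in controls (12.2% of genes) and Stat2 with IFNα (9.89%). Both overlapped in FPKM. With IFNα the highest wild-type and lowest mutant library of Stat2 were at 32.7 and 32.8 CPM. Socs3 had an averaged log2 fold change of 0.21 ± 0.122 with an adjusted p of 0.376. The rest were near 0: −0.11 for Stat5b, −0.10 for Tyk2, −0.08 for Stat6, 0.07 for Stat2, 0.03 for Jak2 and 0.00 for Socs1. All 9 averaged intervals lay within 2-fold, and for Socs1 the interval was −0.321 to 0.323. Stat5b and Jak2 are placed on chromosome 11 at 100671557 to 100741550, minus strand, and on chromosome 19 at 29229228 to 29290480, plus strand. The genotype and IFNα comparisons use the same 12 libraries, and their values are not independent of each other.

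**Figure D3:**
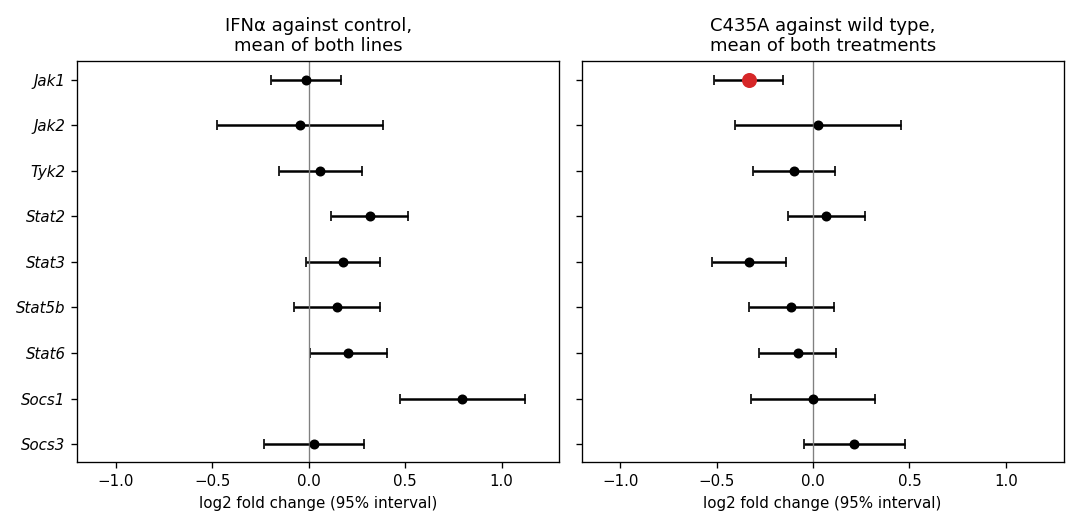
Log2 fold change with 95% interval from edgeR for the 9 genes, IFNα against control averaged over both lines (left) and C435A against wild type averaged over both treatments (right); the large red point is past an adjusted p of 0.05. Socs1 (0.79) stands farthest from 0 on the left, and Jak1 and Stat3 (both −0.33) on the right, where Jak1 alone is past the threshold.

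The dependence of these 3 values on the fit is plotted as adjusted p.

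**Figure D4:**
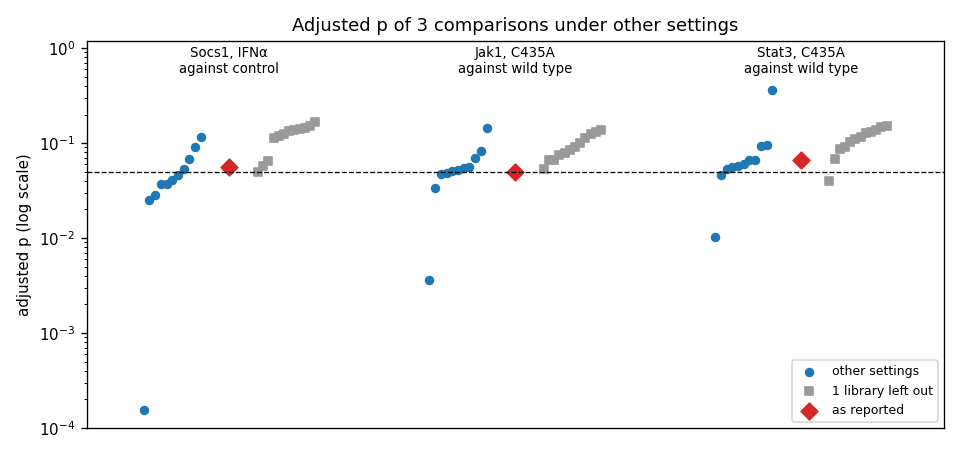
Adjusted p (log axis) of Socs1 for IFNα and of Jak1 and Stat3 for C435A, as reported (red diamonds), under 11 other settings (blue circles) and with each of the 12 libraries left out (grey squares); the dashed line is 0.05. Socs1 passed in 7 of the 11 settings and 1 of the 12 fits, Jak1 in 4 and 0, and Stat3 in 2 and 1. The 7 for Socs1 include the fit on the libraries with lung transcripts alone. That fit was chosen after the data were seen and has groups of a single library.

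Other genes of the pathway were read from lists. The 9 further JAK, STAT and SOCS genes tested gave 0 calls in either averaged comparison. Of all genes edgeR called 0.171% for IFNα and 2.8% for C435A. The median log2 fold change of these 9 was 0.10 for IFNα and −0.12 for C435A. Jak3, the kinase of the common gamma chain, was at an FPKM of 1.3 ± 0.133 in wild-type controls, and Stat5a at 1.64 ± 0.55. Cish, a STAT5 target and SOCS relative, was at 0.387 ± 0.0352 and differed by 0.25 ± 0.183 with IFNα. Stat4, a STAT of lymphocytes, stood at 0.0379 ± 0.0226, and Socs2 at 0.0691 ± 0.0175.

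Receptor chains numbered 23 tested, with 0 calls for IFNα (median 0.13), where 0.171% of all genes passed. For C435A 1 was higher, Il12rb1 at 0.50 ± 0.117 (edgeR adjusted p = 0.0384), a chain of the interleukin-12 and interleukin-23 receptors. In that comparison edgeR called 2.8% of all genes. Limma called 0 of the receptor chains, against 3.93% of genes, and DESeq2 2, against 8.13%. The type I interferon receptor chains Ifnar1 and Ifnar2 had FPKM of 2.87 ± 0.33 and 5.97 ± 0.207 in wild-type controls, and for Ifnar1 the IFNα difference was 0.15 ± 0.0919. Of 13 other negative regulators edgeR called 0 in either comparison, where 0.171% of all genes passed for IFNα and 2.8% for C435A. DESeq2 called 0 of them for IFNα (2.53% of genes) and 1 for C435A (8.13%). Limma called 0 in both, against 0.258% and 3.93% of genes. The smallest edgeR p for IFNα was that of Sh2b3, an adaptor that restrains Jak2 (0.23 ± 0.102, adjusted p = 0.456). For C435A it was that of Ptpn11, a phosphatase (−0.40 ± 0.122, adjusted p = 0.1).

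Among 10 cytokines that signal through JAKs, edgeR called 2 higher with IFNα, both type I interferons, where 0.171% of all genes passed. DESeq2 called 3 of the list, against 2.53% of genes, and limma 2, against 0.258%. Ifna4 rose by 2.05 ± 0.273 (edgeR adjusted p = 0.00983), its FPKM being 2.76 ± 1.4 and 7.93 ± 1.63 without and with IFNα in the wild type and 0.679 ± 0.269 and 4.28 ± 0.488 in the mutant. Ifnb1 rose by 0.80 ± 0.116 (adjusted p = 0.0175). Across genotypes Ifna4 fell by 1.36 ± 0.27 in the mutant (edgeR adjusted p = 0.0165), the only edgeR call of that list. Of all genes edgeR called 0.915% lower. DESeq2 called 2 of the list for C435A, against 8.13% of genes, and limma 2, against 3.93%. Reads of Ifna4 may be shared with other members of the interferon alpha family, which are near-identical copies.

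Transcripts that STATs are known to drive were read from 4 lists. Of 26 ISGF3 targets 0 passed for IFNα, with a median of 0.15 against 0.002 for all genes. In wild-type controls the FPKM of these targets ran from 1.55 ± 0.16 for Oas3 to 2910 ± 395 for Isg15. Bst2 was at 1500 ± 31.5, Ifit3 at 552 ± 65.5 and Cmpk2 at 14.7 ± 3.83. Whether the level without IFNα bears on the IFNα differences was not tested. The targets with the smallest p were Cmpk2 (0.53 ± 0.112, edgeR adjusted p = 0.096), Parp14 (0.47 ± 0.109), Mx1 (0.36 ± 0.0999) and Oasl2 (0.32 ± 0.0889). DESeq2 called 4 of the list, against 2.53% of all genes, and limma 0, against 0.258%, and 7 had an unadjusted p under 0.05 with edgeR, against 10.2%. Of 8 GAS-driven interferon targets edgeR called 2 higher with IFNα, where 0.171% of all genes passed. These were Irf1, a transcription factor and early interferon target, by 0.69 ± 0.0695 (edgeR adjusted p = 0.00171), and the chemokine Cxcl10 by 0.52 ± 0.0829 (edgeR adjusted p = 0.0338). DESeq2 called 3 of this list and limma 2. Irf1 had an FPKM of 8.28 ± 0.755 and 13.7 ± 1.92 without and with IFNα in the wild type and 10.5 ± 0.756 and 17 ± 0.477 in the mutant. For 16 STAT3 targets and 10 STAT5 targets 0 passed.

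Between the lines, edgeR called 5 ISGF3 targets higher in the mutant and 1 lower, where 2.8% of all genes were called, 0.915% as lower. Those higher were Oasl1 (0.84 ± 0.108), Mx2 (0.65 ± 0.0926), Mx1 (0.60 ± 0.1), Ifit2 (0.44 ± 0.103) and Dhx58 (0.35 ± 0.0867), antiviral effectors and an RNA sensor, and Irf7 fell by 0.93 ± 0.119. Stat2 itself differed by 0.07. Among STAT3 targets Pim1, a kinase that promotes survival and is also listed under STAT5, rose by 0.69 ± 0.122 (edgeR adjusted p = 0.0088), and Junb, an AP-1 subunit, by 0.37 ± 0.0773 (adjusted p = 0.0219). Of the 16 STAT3 targets 8 had positive and 8 negative values, with a median of −0.0015. Limma called 1 of the STAT3 targets and 4 of the ISGF3 targets, against 3.93% of all genes. DESeq2 called 2 and 8 of them, against 8.13%. Irf1 rose by 0.43 ± 0.0693 (adjusted p = 0.00583).

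**Figure D5:**
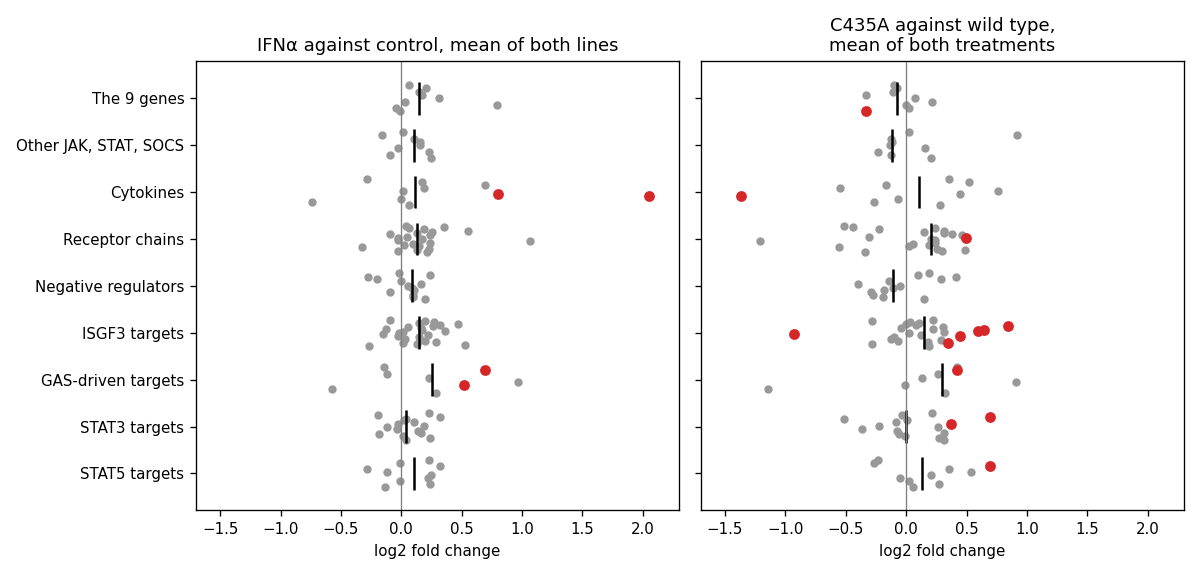
Log2 fold changes from edgeR of the 9 genes and of 8 lists of pathway genes, each point 1 gene and each black bar the list's median, for IFNα against control (left) and C435A against wild type (right); red points are past an adjusted p of 0.05. On the left the red points are Ifna4, Ifnb1, Irf1 and Cxcl10, and on the right Irf7 and Ifna4 fell and the highest red point is Oasl1, 0.84.

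The genes whose levels ran most like each member's over the 12 libraries were taken by Pearson's r of log2(CPM + 1) among 4762 genes with a mean FPKM of at least 5. All these correlations rest on the same 12 libraries and were not tested, so these are descriptions. Socs1 ran closest with Irf2bp1 (r = 0.927), Tcf3 (0.878) and Tbc1d10b (0.878), Stat2 with Kifc1 (0.914), Aldh18a1 (0.909) and Clcn7 (0.904), and Jak1 with Srpr (0.937), Sqle (0.933) and Stam2 (0.926). Stat3 ran with Scamp2 (0.95), Atp6v0a1 (0.946) and Rxra (0.944), Stat5b most with Nrp2 (0.935) and Stat6 with Dhx30 (0.936). The poorest likeness was that of Jak2, with Prkaca at 0.806, and for Socs3 it was Rpl17 at 0.853. With Spearman's rho in place of r, 2 of the 3 genes were shared for Socs1 and Jak2, 1 for Jak1, Stat5b, Stat6 and Socs3, and 0 for Tyk2, Stat2 and Stat3.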

How the data were processed

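Per the labels' protocols, libraries were made from poly(A)-selected RNA, stranded by incorporation of uracil, and read in pairs. The build GRCm38 and the tools HISAT2 2.0.4, StringTie 1.3.4d, cutadapt 1.9, edgeR, DESeq2 and UMI-tools are listed, without their roles, per the submitters' processing notes. The authors deposited 1 table with a whole-number count and an FPKM per gene and library, per the file headers. The counts are not scaled for depth, and the deposited FPKM are scaled for transcript length and depth. Only 2.2% of deposited gene starts equal those of GRCm38, so positions are given as deposited.

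Counts were tested in R 4.3.3 with edgeR 4.0.16 (TMM scaling, default filter on low counts, quasi-likelihood test, 1 fit of 4 group means over 12 libraries, two-sided, Benjamini-Hochberg over 17590 genes within a comparison, threshold 0.05). All log2 fold changes, standard errors and 95% intervals are from that fit (n = 3 libraries per group) unless another tool is named, and list medians and calls likewise. The common coefficient of variation was 28.9%. Alternatives were DESeq2 1.42.0, limma 3.58.1 on log2(FPKM + 1) and log2(FPKM + 0.1) for the 10094 genes that reached an FPKM of 1 in 3 or more libraries, other scalings and filters, robust estimation, a replicate block, a term for libraries with lung markers above 5 CPM, only the groups compared, and each library left out. The fit on libraries with lung markers alone was chosen after seeing the data. Code was tested on simulated counts. Members, lists and the rule for named genes (all members; list genes past the threshold and up to 4 others with the smallest p; 3 genes of like pattern per member) were chosen with earlier results of these data known. Beyond members and genes past the threshold, some of the genes this rule takes are printed. 2 genes of the lists are not reported here.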

Additional observations from a re-analysis of the deposited data

Results flagged for a closer look

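For Tyk2 the IFNα libraries lay on opposite sides of the control mean in the 2 lines, without a passing test in either. All 3 wild-type IFNα libraries (FPKM 6.07, 5.87 and 5.48) lay below the mean of the wild-type controls (6.2 ± 0.86), and all 3 mutant IFNα libraries (5.81, 5.15 and 6.22) lay above the mean of the mutant controls (4.8 ± 0.769). The groups overlapped in both lines. The log2 fold change was −0.11 ± 0.141 for the wild type and 0.23 ± 0.141 for the mutant, a difference of 0.342 with a standard error of 0.199 and an edgeR adjusted p of 0.916 (0.535 to 1 over the settings and left-out libraries), so the lines were not shown to differ. In the 8 libraries with lung transcripts, 1 of them a wild-type control, the wild-type value was 0.071.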

How the results depend on the processing

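Of 788 recomputed values of members, under up to 12 other settings and with each of 12 libraries left out, 702 kept their direction and their side of the threshold, 13 gained and 19 lost a call, and 54 changed sign. IFNα averaged over the lines called 0 members with edgeR and 1 (Socs1) with DESeq2 (adjusted p = 0.000153), with an FPKM minimum of 1 (0.0287), with robust estimation (0.037), with limma at either pseudocount (0.0411 and 0.0461), with a term for lung transcripts (0.0367) and in the libraries with lung transcripts (0.0249); with DESeq2 size factors, library totals, no filter and the replicate block it was 0.0535, 0.0687, 0.0909 and 0.115, and with libraries left out 0 to 1 members were called, over 4 to 44 genes in all. C435A averaged over treatments called 1 member (Jak1), 2 with DESeq2 and with the FPKM minimum (Jak1 and Stat3) and 0 with library totals, no filter, limma at either pseudocount, the replicate block, the lung term and the lung libraries; with libraries left out 0 to 1 were called (Stat3, without mutant IFNα 3), over 199 to 550 genes in all. DESeq2 also called 1 member for IFNα in the mutant (Socs1, adjusted p = 0.0203) and 1 for C435A with IFNα (Jak1, 0.0371), where edgeR called 0. In the lung libraries the fit called 757 and 742 genes in the averaged comparisons. The cause of these changes was not tested. With library totals the median of all genes for C435A was −0.088. Over all genes DESeq2 called 66, 185, 232 and 638 in the 4 comparisons between groups and 291 and 1236 in the averages for IFNα and C435A, where edgeR called 4, 1, 29, 105, 30 and 493.

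Replicate numbers did not pair the libraries. For this check the group mean of each gene's log2 CPM was subtracted, and what was left was correlated between libraries of different groups. Same-numbered libraries then correlated between −0.134 and 0.0884 over 18 pairs, and 0 libraries correlated best with a library of their own number. With the replicate block 0 members were called in each of the 7 comparisons, and the genes called fell from 493 to 314 for C435A and from 30 to 7 for IFNα in the averages.

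Changes of sign were among values whose 95% interval included 0. For C435A, Socs1 (0.00098) became −0.0070 with DESeq2, −0.0081 with no filter, −0.0075 with the replicate block, −0.0031 with the FPKM minimum, −0.087 with library totals, −0.095 with limma at 0.1 and −0.069 with limma at 1, and ran from −0.10 to 0.12 with libraries left out. Stat2 became −0.022 with library totals, −0.026 with limma at 0.1 and −0.022 with limma at 1, Jak2 became −0.074 with library totals and ran from −0.10 to 0.15, and Stat6 and Tyk2 became 0.11 and 0.056 in the lung libraries. For IFNα, Jak1 became 0.016 with library totals, 0.0034 and 0.0051 with limma at 0.1 and 1 and ran from −0.063 to 0.016, Jak2 became 0.029 in the lung libraries and ran from −0.18 to 0.084, Socs3 ran from −0.032 to 0.070 and Tyk2 from −0.0031 to 0.12. In the wild type Tyk2 became 0.071 in the lung libraries and ran from −0.19 to 0.0027, and Stat6 ran from −0.067 to 0.11. The interaction of Socs1 became −0.40 with the lung term and −0.41 in the lung libraries and ran from −0.073 to 0.31, and that of Stat2 became −0.22 and −0.24 and ran from −0.080 to 0.14.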
